A study of Mus musculus with 6 samples.

Results

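The Rlbp1-selected cells were 1413 cells of the early postnatal mouse retina, out of 29016 kept cells in 3 libraries and 57690 in the whole series. A cell was selected when its barcode held 1 or more unique molecular identifiers (UMIs, each standing for 1 captured transcript) of Rlbp1, 1 or more of at least 2 of Apoe, Glul, Aqp4, Clu and Car2, and 0 of the cell cycle genes Mki67, Top2a and Pcna and of the neuronal genes Nr2e3, Tfap2b and Neurod4. The cells were proposed as Müller glia that had left the cell cycle. P3 replicate 1 gave 414 of them, P3 replicate 2 gave 4 and P6 gave 995. The study profiled the neurosensory retina of wild type C57BL/6J mice by single-cell RNA-seq at embryonic days 14 and 16 (E14, E16) and postnatal days 0, 3 and 6 (P0, P3, P6), with 2 libraries at P3 and 1 at each other age. Per the study's methods, 4 to 8 retinas were pooled for each time point, so a library is a pool of animals and no animal can be followed. Retinas were dissociated with papain and live cells were sorted by exclusion of DAPI, with no treatment. Kept cells had 300 to 6000 detected genes and at most 15% mitochondrial UMIs.

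Müller glia are the main glia of the retina and span its whole thickness. They clear and recycle neurotransmitter, buffer potassium and water, and supply retinoid to photoreceptors. They are among the last cells made by the multipotent retinal progenitors, with which they share many genes, including those of the Notch pathway that holds cells in a progenitor or glial state. Rlbp1 encodes the retinaldehyde-binding protein CRALBP, Apoe a lipid carrier, Glul glutamine synthetase, Aqp4 a water channel, Clu a secreted chaperone and Car2 a cytosolic carbonic anhydrase.

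The libraries held 32624738 to 107793173 UMIs. P3 replicate 2 stood apart from the other P3 library before any gene was compared. It had 3113 kept cells against 12303 in P3 replicate 1, its counts were made on an older gene annotation, and 54.8% of its kept cells had a Nr2e3 UMI and 45.5% a Tfap2b UMI, against 29.1% and 19.04%. At P6 these shares were 51.2% and 7.53%. UMIs of both genes were found in 22.7% of the kept cells of P3 replicate 2, against 4.75% in P3 replicate 1 and 3.32% at P6. The cause was not tested. With 4 members, 1 UMI in P3 replicate 2 equals 55.7 CPM (UMIs per 1000000 UMIs of the genes found in both annotations). The members of different libraries shared 0 cell barcodes, and 39 barcodes occurred among the kept cells of both P3 replicate 1 and P6. A doublet caller marked 3 of the 414 members, 0 of the 4 and 9 of the 995. Of all kept cells it marked 9.84%, 2.51% and 10.9%, with the libraries in that order. The zeros of the rule also turn away barcodes that mix cell types, so the low counts do not show that members were free of doublets.

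The selected cells made up 3.37% of the kept cells in P3 replicate 1 (exact 95% binomial interval 3.05 to 3.70) and 7.32% at P6 (6.88 to 7.77). They made up 0.128% in P3 replicate 2 (0.0350 to 0.329). The same rule found 1 cell at E14, 3 at E16 and 35 at P0, where they were 0.336% of the kept cells (0.234 to 0.467). The share was therefore highest in the oldest library, but the 2 P3 libraries did not overlap, and the P3 replicate 2 interval overlapped that of P0. The share was not tested against age, and these intervals cover counting error only. It depended on the rule: with no zeros asked of the neuronal genes it was 4.93%, 1.09% and 11.01% in P3 replicate 1, replicate 2 and P6, and with 3 of the 5 other genes 1.75%, 0.0642% and 4.88%. The libraries were in the same order under both.

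Because the rule asks for both detected and absent genes, depth acts on it in opposite directions. After each cell was thinned to 2000 UMIs, P3 replicate 1 had a share of 2.94% (327 of 11106 cells), P3 replicate 2 one of 0.321% (10 of 3113) and P6 one of 9.22% (1086 of 11779). Shallower cells left out numbered 1197, 0 and 1821. Of the cells that passed when thinned, 191, 2 and 701 had also passed with all their UMIs. So the order of the 3 libraries was the same, while many of the cells chosen were different ones.

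**Figure D1:**
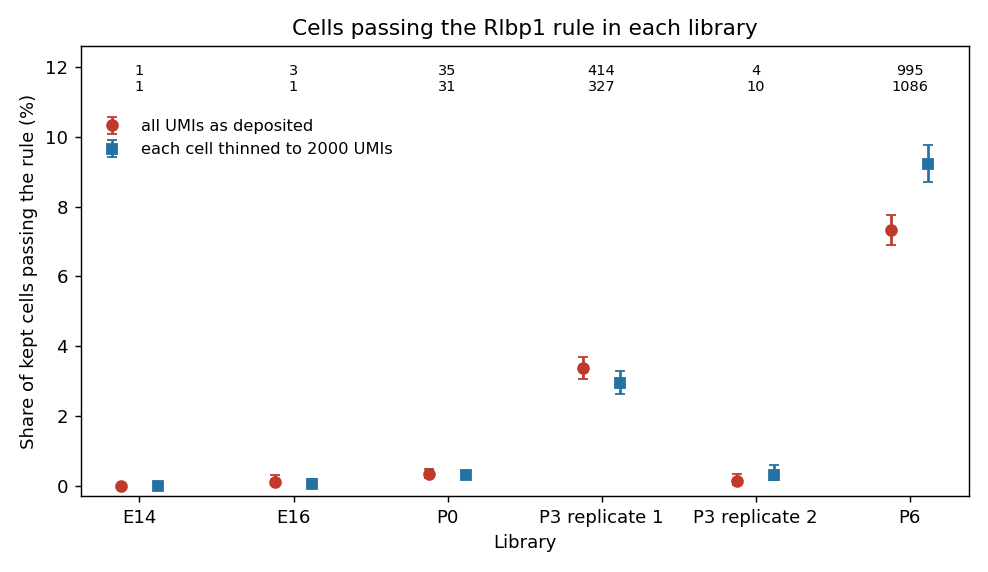
Share of kept cells that passed the Rlbp1 rule (y axis, percent) in each of the 6 libraries (x axis), with all UMIs (circles) and after thinning to 2000 UMIs per cell (squares), with exact 95% binomial intervals as bars and the numbers of cells passing at the top, deposited above thinned. P6 lies at 7.32% and 9.22%, P3 replicate 1 at 3.37% and 2.94%, and the other 4 libraries are below 0.4%.

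The positive part of the rule on its own, Rlbp1 with 2 of the 5 other genes, held in 24.9%, 22.8% and 26.1% of the kept cells of P3 replicates 1 and 2 and of P6. Free RNA and doublets can put such UMIs into any barcode, so the same share was taken in cells that should lack these genes. Among cells with a Nr2e3 UMI, a rod gene, and 0 cell cycle UMIs it was 2.75%, 5.68% and 5.52% (median 2495, 5065.5 and 2558 UMIs per cell). Among cells with a Tfap2b UMI, an amacrine gene, and 0 cell cycle UMIs it was 6.29%, 4.25% and 14.2% (median 3858.5, 4915.5 and 3946 UMIs). Among cells with 0 UMIs of all 6 excluding genes it was 35.8% in P3 replicate 1 and 65.5% at P6, with medians of 3924 and 4648.5 UMIs, but 1.44% in P3 replicate 2 with a median of 4627. In P3 replicate 1 and at P6 the candidate cells stood above the neuronal classes, and in P3 replicate 2 they did not. In thinned cells of P3 replicate 2 the shares were 0.722%, 0.541% and 0.25% for cells with 0 UMIs of the excluding genes and for the Nr2e3 and Tfap2b classes, too few cells to tell them apart, so no excess over background was detectable there. Levels are therefore given for P3 replicate 1 and P6, with P3 replicate 2 added where it changes a statement.

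**Figure D2:**
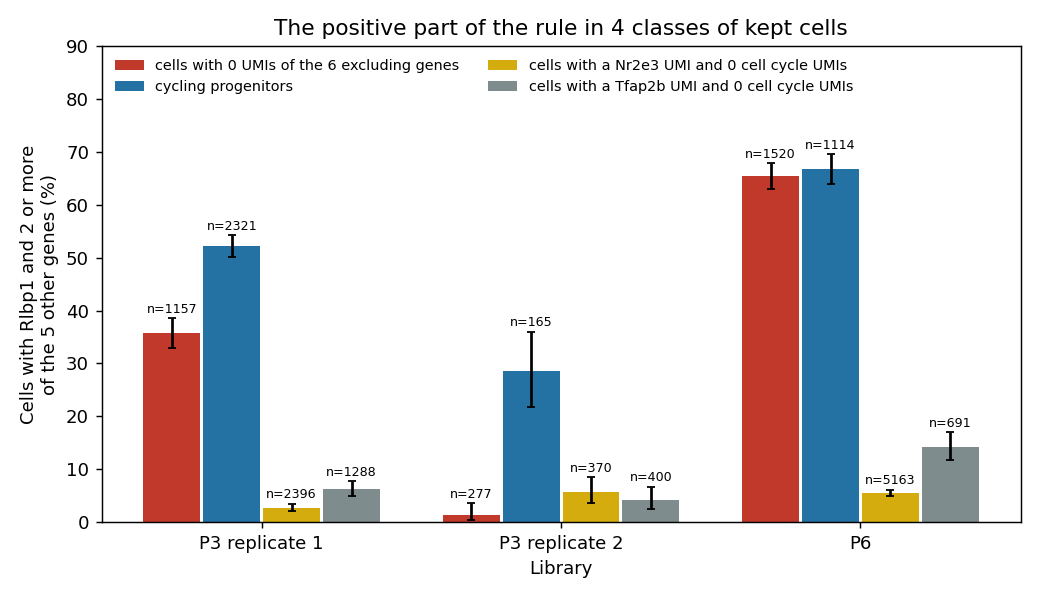
Share of cells (y axis, percent) with Rlbp1 and 2 or more of Apoe, Glul, Aqp4, Clu and Car2 in 4 classes of kept cells, for 3 libraries (x axis); bars show exact 95% binomial intervals and n is the number of cells. Cells with 0 UMIs of the 6 excluding genes reach 35.8% and 65.5% in P3 replicate 1 and P6 but 1.44% in P3 replicate 2, and cycling progenitors reach 52.3%, 28.5% and 66.8%. Cycling progenitors were deeper in P3 replicate 1 and at P6, with medians of 6152 and 6876 UMIs against 3924 and 4648.5. After thinning, not drawn, the first class had 18.2%, 0.722% and 50.7% in P3 replicates 1 and 2 and P6. Thinned cycling progenitors had 13.8%, 6.06% and 23.9%.

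The genes of the rule were checked against the label. Rlbp1 was at 617 CPM in the members of P3 replicate 1 (exact Poisson interval 582 to 653) and 1223 CPM in those of P6 (1194 to 1253), against 126 and 236 CPM in the other kept cells. The gene lies on the minus strand at chr7:79374870-79387048 (GRCm38). Apoe was at 989 and 3028 CPM against 469 and 868, and Glul at 269 and 296 CPM against 150 and 131. Car2 was at 553 and 728 CPM against 252 and 287. These differences follow from the rule. Aqp4 and Clu, which the label names as markers, contributed almost nothing to it. Aqp4 was at 0 and 0.917 CPM, with a UMI in 0% of the members of P3 replicate 1 and 0.503% of those of P6. Clu was at 1.58 and 3.30 CPM, below the 2.96 and 6.78 CPM of the other cells. The selected cells thus carried the defining gene Rlbp1 with Apoe, Glul and Car2, while Aqp4 and Clu were found in few of them.

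The members varied among themselves. Rlbp1 ranged from 1 to 15 UMIs per member in P3 replicate 1, with a median of 2, and from 1 to 27 at P6, with a median of 6. A lone Rlbp1 UMI brought in 36.0% of the members of P3 replicate 1 and 11.4% of those of P6. Exactly 2 of the 5 other genes were detected in 48.1% and 33.4%, 3 in 51.2% and 65.4%, 4 in 0.725% and 1.21%, and all 5 in 0%. The combination of Apoe, Glul and Car2 accounted for 51.2% and 64.7% of members and that of Apoe and Car2 for 25.1% and 21.5%. Members held 721 to 13328 UMIs in P3 replicate 1 and 705 to 14788 at P6, with medians of 4413.5 and 5323 against 4218 and 3809 in the other kept cells.

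Cells just outside the rule still held glial genes. In P3 replicate 1, 199 members had exactly 2 of the 5 genes, and 87 cells with the same zeros and Rlbp1 had 1 of the 5. At P6 these were 332 and 66 cells. Crym was at 1161 CPM just inside and 716 CPM just outside in P3 replicate 1, and at 2038 and 1115 CPM at P6. Slc1a3 was at 448 and 326 CPM, and at 663 and 488 CPM. Crx, a photoreceptor gene, was at 4.7 CPM inside and 8.5 CPM outside, and at 10.6 and 31.4 CPM. In P3 replicate 1 this came from 4 and 3 UMIs, with overlapping intervals. Crym and Slc1a3 were thus present on both sides of the threshold, at lower levels outside it. Not every glial gene was lower outside. Id3 was at 404 CPM inside and 411 CPM outside in P3 replicate 1, and at 493 and 582 CPM at P6. Sox9 was at 241 and 258 CPM in P3 replicate 1, but at 315 and 230 CPM at P6. Car14 was at 38.4 and 39.6 CPM in P3 replicate 1, but at 96.3 and 59.2 CPM at P6.

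To describe the members against their libraries, UMIs were summed per library over members and over all other kept cells and compared by the quasi-likelihood method of edgeR, blocking on library. Of 13235 genes tested, 2393 were higher in members (18.1%) and 3123 lower (23.6%) at an adjusted p under 0.05. Without P3 replicate 2 these counts were 2841 and 3421, and without P6, which holds most members, 669 and 1294. The cells were selected by their own counts, so the calls and fold changes describe the contrast that the rule made, and nothing is read from how many there were. DESeq2 called fewer, 354 higher and 1048 lower, and its counts are given beside those of edgeR for the lists. Where 2 or 3 levels follow each other below, they are in members, other kept cells and, where given, cycling progenitors (kept cells with 2 or more of Mki67, Top2a and Pcna and 0 UMIs of the 3 neuronal genes, numbering 2321, 165 and 1114 in P3 replicates 1 and 2 and at P6).

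Müller glia markers outside the rule were higher in members almost throughout. Of 29 list genes tested, 26 were higher and 0 lower (15 and 0 by DESeq2), with a median log2 fold change of 1.38 against −0.04 over all genes tested. Slc1a3, the glial glutamate transporter GLAST, was at 562, 219 and 373 CPM in P3 replicate 1 and 815, 208 and 359 CPM at P6 (log2 fold change against other cells 1.76 ± 0.23, SE). Vim, the intermediate filament vimentin, was at 1018, 485 and 816 CPM and at 1436, 481 and 977 CPM (1.38 ± 0.33). Members were highest of the 3 groups for both genes in both libraries. Crym, which encodes the thyroid hormone-binding protein µ-crystallin, was at 1464, 444 and 705 CPM and at 2604, 638 and 1038 CPM (1.95 ± 0.39). Car14, a membrane carbonic anhydrase of Müller glia, was at 42.0, 9.58 and 9.26 CPM and at 133, 23.6 and 14.0 CPM (2.49 ± 0.16). Dkk3, a secreted Dickkopf family protein, was at 330, 212 and 335 CPM and at 497, 203 and 425 CPM, so members stood above other cells but not above cycling progenitors in P3 replicate 1. Itm2b, Slc4a4 and Nupr1 did not pass, and Abca8a had 0 UMIs in every group.

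The share of cells with a UMI gave the same picture beside background. After thinning, Slc1a3 was found in 59.5% of members of P3 replicate 1 and 68.0% of those of P6, against 5.6% and 8.6% of the Nr2e3 cells with 0 cell cycle UMIs. Crym was found in 82.4% and 93.0% of members against 9.2% and 11.1%, and Car14 in 6.6% and 21.1% against 0.6% and 1.7%. Without thinning the Slc1a3 shares were 80.0% and 86.3% against 7.9% and 10.4%. Among thinned Tfap2b cells with 0 cell cycle UMIs the shares were 10.9% and 17.8% for Slc1a3, 13.2% and 22.5% for Crym, and 1.4% and 4.4% for Car14. Thinned cycling progenitors gave 47.5% and 44.4% for Slc1a3, 67.2% and 76.5% for Crym, and 1.2% and 1.8% for Car14. For these 3 genes the members held UMIs far more often than both neuronal classes. For Slc1a3 and Crym the cycling progenitors lay much nearer to the members.

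**Figure D3:**
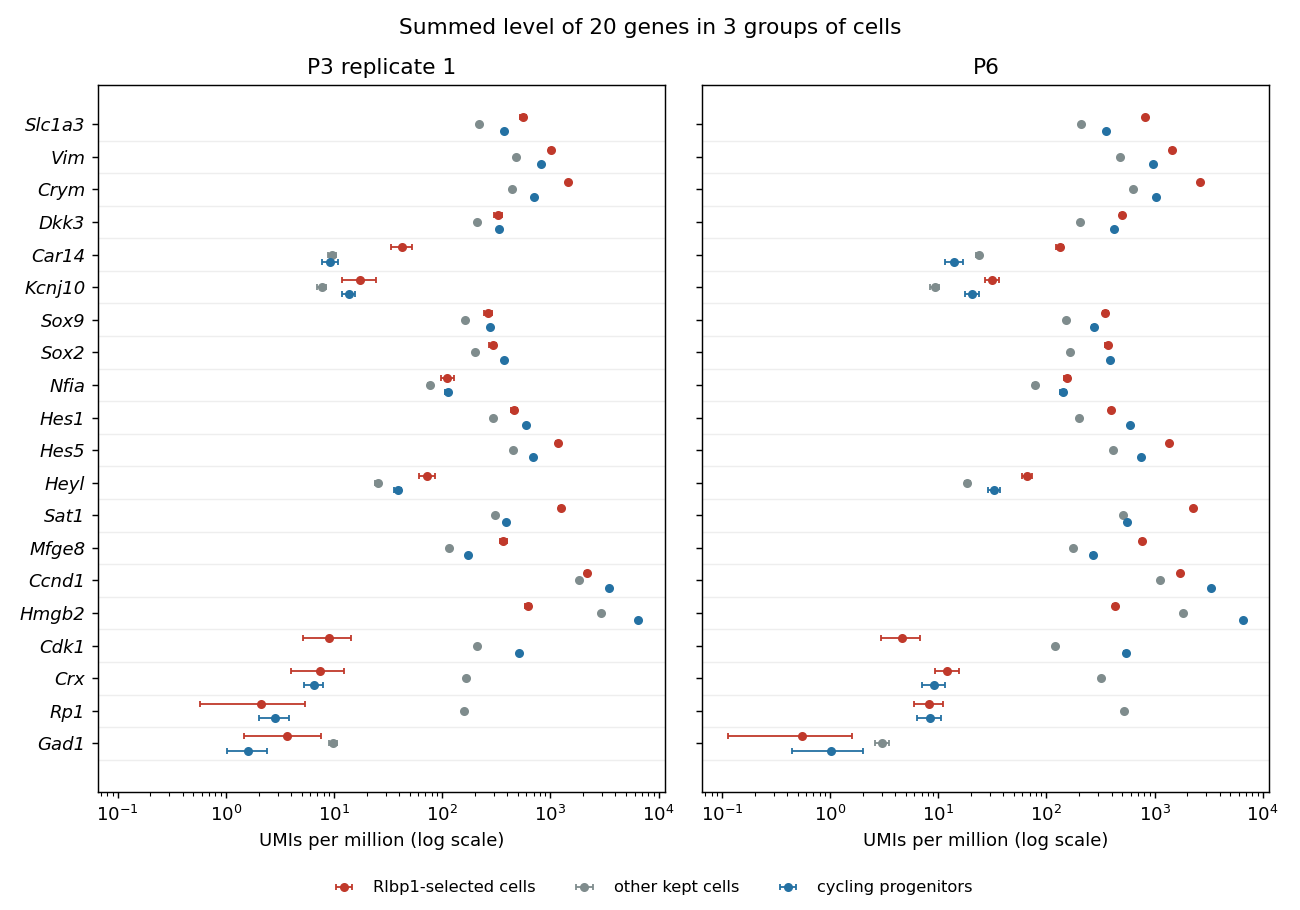
Level of 20 genes (rows) as CPM on a log axis in the Rlbp1-selected cells (red), other kept cells (grey) and cycling progenitors (blue) of P3 replicate 1 (left) and P6 (right), with exact 95% Poisson intervals that cover counting error only. Slc1a3, Crym, Car14, Hes5, Sat1 and Mfge8 are highest in the selected cells in both libraries, Hes1, Ccnd1, Hmgb2 and Cdk1 are highest in cycling progenitors, and Crx and Rp1 are highest in other kept cells.

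Genes of transmitter recycling were split. Of the 11, 6 were higher and 3 lower (2 and 2 by DESeq2). Besides Slc1a3, Abat, which breaks down GABA, was at 44.1 and 24.8 CPM in members and other cells of P3 replicate 1 and at 51.7 and 20.4 CPM at P6. Slc38a3, the glutamine exporter of glia, Glud1 and Gldc were also higher. Slc1a2, the glutamate transporter GLT-1, which retinal neurons also use, was at 4.73 and 155 CPM and at 6.42 and 286 CPM (−5.28 ± 0.24). The glycine transporter Slc6a9 of amacrine cells was at 1.58 and 16.0 CPM and at 2.75 and 28.8 CPM. Members therefore held the glial glutamate transporter and were low in the neuronal one.

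Most potassium and water genes were at low levels in members. The highest were Dag1, at 83.6 CPM in P3 replicate 1 and 107 CPM at P6, and Car14, at 42.0 and 133 CPM. Kcnj10, the inward rectifier Kir4.1 of mature Müller glia, was at 17.3, 7.65 and 13.7 CPM in P3 replicate 1 and at 31.5, 9.23 and 20.6 CPM at P6 (1.65 ± 0.21), from 33 and 172 UMIs in members. Of 11 genes 6 were higher and 2 lower (2 and 2 by DESeq2). Mlc1, a membrane protein of glial endfeet, reached 5.78 and 9.35 CPM in members. The lower genes were Atp1b2, a sodium pump subunit at 24.2 and 131 CPM and at 33.9 and 224 CPM, and Dmd, dystrophin, at 34.7 and 162 CPM and at 38.5 and 297 CPM, both also used by photoreceptors.

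Retinoid and lipid genes showed no common direction, and their counts are to be read beside the 18.1% higher and 23.6% lower of all genes. Of 11 retinoid genes 4 were higher and 3 lower (1 and 1 by DESeq2). Cyp26a1, which degrades retinoic acid, was at 74.1, 19.7 and 34.8 CPM in P3 replicate 1 and at 63.8, 11.99 and 19.3 CPM at P6 (2.30 ± 0.16), in 19.1% and 15.4% of members. Rgr, the opsin of mature Müller glia and pigment epithelium, had 0 UMIs in members of all 3 libraries. Of 15 lipid genes 4 were higher and 5 lower (1 and 2 by DESeq2). Fabp7, a fatty acid-binding protein of many neural precursors, was at 34.2 and 1345 CPM and at 40.9 and 1545 CPM, and was thus low in members. Abca1, a cholesterol exporter that loads apolipoprotein E, was at 11.6, 13.1 and 2.95 CPM and at 42.7, 39.9 and 9.06 CPM, close to other cells and above cycling progenitors (log2 fold change 2.08 against the latter).

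In the Notch pathway, ligand binding releases the receptor's intracellular domain, which joins RBPJ on DNA and switches on Hes and Hey repressors. Of 21 genes 9 were higher in members and 4 lower (3 and 0 by DESeq2), with a median log2 fold change of 0.34. Among ligands, Dll1 was higher, at 83.0 and 44.1 CPM in P3 replicate 1 and 82.0 and 38.4 CPM at P6, and Dll3, Dll4 and Jag1 were lower, as was the fringe gene Rfng. Dll4 and Jag1 were below 4 CPM in members. Among receptors, Notch1 was at 343 and 232 CPM and at 395 and 202 CPM, and Notch2 and Notch3 were also higher at under 20 CPM. Rbpj did not pass. Among targets, Hes1 was at 464, 297 and 591 CPM and at 393, 199 and 592 CPM (0.92 ± 0.19). Hes5 was at 1175, 452 and 684 CPM and at 1372, 409 and 755 CPM (1.19 ± 0.35), and Heyl at 72.5, 25.3 and 38.6 CPM and at 66.8, 18.6 and 32.8 CPM (1.77 ± 0.15). In these 2 libraries members had the highest levels of Hes5 and Heyl, and cycling progenitors that of Hes1. Against cycling progenitors Heyl was called higher and Hes1 lower, and Hes5 did not pass (log2 fold change 0.33). In P3 replicate 2 Hes5 was at 278, 428 and 895 CPM, the reverse order, from 5 UMIs in its 4 members.

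The 250 bases upstream of the RefSeq start of Hes5, a textbook RBPJ target, and of Rlbp1, the gene that chose the cells, are shown to set a Notch target of the members beside their defining glial gene. Hes1 and Heyl were not in the sequence table used. The RefSeq start of Rlbp1 lies slightly inside the gene as positioned above, which is taken from another annotation. They are RefSeq sequence on GRCm38.p6, 5′ to 3′ on the gene's own strand, chr4:154960673-154960922 (plus strand) for Hes5 and chr7:79387028-79387277 (minus strand) for Rlbp1. Capitals mark TGGGAA or its reverse complement TTCCCA, the core of the RBPJ motif, searched on both strands.
Hes5: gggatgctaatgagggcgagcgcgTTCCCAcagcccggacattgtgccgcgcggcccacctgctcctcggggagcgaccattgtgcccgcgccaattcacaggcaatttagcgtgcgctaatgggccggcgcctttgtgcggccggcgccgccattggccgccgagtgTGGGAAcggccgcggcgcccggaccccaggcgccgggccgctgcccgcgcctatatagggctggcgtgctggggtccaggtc
Rlbp1: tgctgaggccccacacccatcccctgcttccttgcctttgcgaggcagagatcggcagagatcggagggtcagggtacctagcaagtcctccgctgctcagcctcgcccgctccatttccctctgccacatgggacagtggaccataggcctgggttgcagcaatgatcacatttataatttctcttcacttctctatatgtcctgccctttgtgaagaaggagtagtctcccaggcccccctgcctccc
Hes5 holds 2 matches and Rlbp1 0. Of 32851 promoter windows of the same length, 21.6% held at least 1 match and 2.77% at least 2. A match is a string of letters, not a measured site, and these data hold no binding measurement.

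Regulators that progenitors and Müller glia share were higher in members than in other cells. Of 19 genes 15 were higher and 0 lower (6 and 0 by DESeq2), with a median log2 fold change of 0.81. Sox9 was at 265, 164 and 277 CPM in P3 replicate 1 and 351, 150 and 274 CPM at P6, and Sox2 at 292, 201 and 374 CPM and 367, 164 and 390 CPM. Nfia, a nuclear factor I gene of late progenitors and glia, was at 111, 76.7 and 112 CPM and 155, 77.7 and 143 CPM. For these 3 genes members lay near cycling progenitors. The inhibitor of differentiation gene Id3 was at 425, 174 and 257 CPM and 561, 166 and 310 CPM, above both groups. Rax, Six3, Six6 and Pax6, used in many retinal cells, did not pass. Of 11 FGF and MAPK genes 10 were higher, among them Etv1, Etv5, Spry1, Spry4 and Dusp6, and Fgf15 was lower, with a median of 0.85 (1 and 0 by DESeq2). Etv1, an ETS factor, was at 86.2, 29.6 and 48.4 CPM and 76.5, 27.0 and 51.1 CPM. Summed over the FGF and MAPK list, the 3 groups were at 436, 284 and 452 CPM in P3 replicate 1 and 445, 227 and 405 CPM at P6. In sum, members thus lay near cycling progenitors.

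Photoreceptor and amacrine markers were low in members. All 11 rod genes, all 8 cone genes and all 5 photoreceptor precursor genes were lower than in other cells (10, 5 and 5 by DESeq2), and 7 of 8 amacrine genes were lower. Summed over the rod list, members held 48.3 CPM in P3 replicate 1 and 91.3 CPM at P6, against 1595 and 4501 CPM in other cells and 38.2 and 74.9 CPM in cycling progenitors. Members were chosen for 0 UMIs of 3 neuronal genes, so low neuronal levels follow in part from the rule. Microglia genes had 1 UMI in the members of P3 replicate 1, with 7 of 8 genes at 0, and 0 UMIs at P6. Lists of some other cell types were higher in sum in members. Horizontal cell genes summed to 145 and 248 CPM against 110 and 144 CPM, mostly Sept4 at 126 and 237 CPM. Ciliary margin genes summed to 135 and 240.1 CPM against 81.1 and 78.4 CPM, mostly the collagen gene Col9a1 at 109 and 207 CPM. Astrocyte genes were at 24.7 and 48.4 CPM in sum, against 11.8 and 19.4 CPM, with 4 of 6 higher (1 by DESeq2), and Gfap, the defining astrocyte gene, was at 0.526 and 3.48 CPM. Of 5 genes of reactive glia tested, Gfap, Cd44 and Nes were called higher (0 by DESeq2). The calls of Gfap and Cd44 rest on P6, with 3.48 against 0.819 CPM and 2.57 against 0.872 CPM, since in P3 replicate 1 they had 1 and 2 UMIs in members and were at 0.526 against 0.731 CPM and 1.05 against 1.36 CPM. Nes, which encodes nestin and is also used by progenitors, was at 138, 74.6 and 139 CPM and 125, 50.3 and 117 CPM. Red blood cell genes summed to 2.10 and 0.367 CPM in members against 163 and 126 CPM in other cells, and vascular genes to 21.0 and 22.6 CPM against 23.8 and 11.5 CPM. Immediate early genes, which tissue dissociation can switch on, summed to 3652 and 4996 CPM in members against 2680 and 3238 CPM in other cells, with 10 of 14 higher and 1 lower (1 and 0 by DESeq2). Fos was at 729, 306 and 432 CPM and 937, 319 and 488 CPM. Their part in the other differences was not tested.

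The rule fixed 3 cell cycle genes at 0, which does not show that a cell had left the cycle. Of 17 other cell cycle genes, 0 were higher and 15 lower in members than in other cells (0 and 11 by DESeq2), and 17 of 17 were lower than in cycling progenitors (16 by DESeq2). The other cells include the dividing cells that the rule left out, and cycling progenitors were chosen for these 3 genes. The counts therefore follow in part from the choice of groups and give no separate evidence that members had left the cycle. Cdk1, the mitotic kinase, was at 8.93, 210 and 508 CPM in P3 replicate 1 and 4.59, 121 and 543 CPM at P6, and had a UMI in 3.86% and 2.21% of members. Among replication licensing genes Mcm2 and Mcm4 did not pass against other cells, and Mcm6 was at 78.3, 93.0 and 161 CPM and 26.0, 49.1 and 146 CPM. Ccnd1, the cyclin of G1 that retinal progenitors use, was at 2174, 1827 and 3499 CPM and 1717, 1127 and 3323 CPM. It was found in 99.0% and 96.2% of members, and after thinning in 94.4% and 86.7%, against 17.1% and 11.8% of the thinned Nr2e3 cells with 0 cell cycle UMIs and 95.4% and 93.7% of thinned cycling progenitors. Members were low in genes of mitosis, in part by the choice of groups, while nearly every one held Ccnd1. Of 5 inhibitors of cyclin-dependent kinases 0 were higher than in other cells, and Cdkn1b, which encodes p27, was at 243, 240 and 321 CPM and 279, 219 and 334 CPM.

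Against cycling progenitors 2082 of 10820 genes were higher in members (19.2%) and 2371 lower (21.9%), and 2430 and 2907 without P3 replicate 2. The counts were 254 and 675 without P6, 1042 and 1207 without P3 replicate 1, and 244 and 940 by DESeq2. The cell cycle genes that lead the lower calls (Esco2, Hist1h3c, Iqgap3, Nusap1, Hist1h2ap, Aurkb, Nek2, Hist1h2ab, Troap and Cit) differ by the choice of both groups. Of 27 Müller markers 17 were higher and 2, Id1 and Slc4a4, lower (7 and 1 by DESeq2), with a median log2 fold change of 0.56 against 0.03 over all genes. Of 19 shared regulators 2 were higher and 3 lower (0 and 2 by DESeq2). Of 20 Notch genes 4 were higher (Dll1, Dll3, Mfng and Heyl) and 3 lower (Dll4, Lfng and Hes1; 2 and 0 by DESeq2). Both lists were thus called at a share near or below that of all genes, and nothing is read from their counts. Of 10 transmitter genes 6 were higher and 2 lower (3 and 0 by DESeq2). Of 11 progenitor genes 3 were higher and 5 lower, among them Fgf15, Sfrp2, Ccnd1 and Hmgb2 (0 and 5 by DESeq2).

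**Figure D4:**
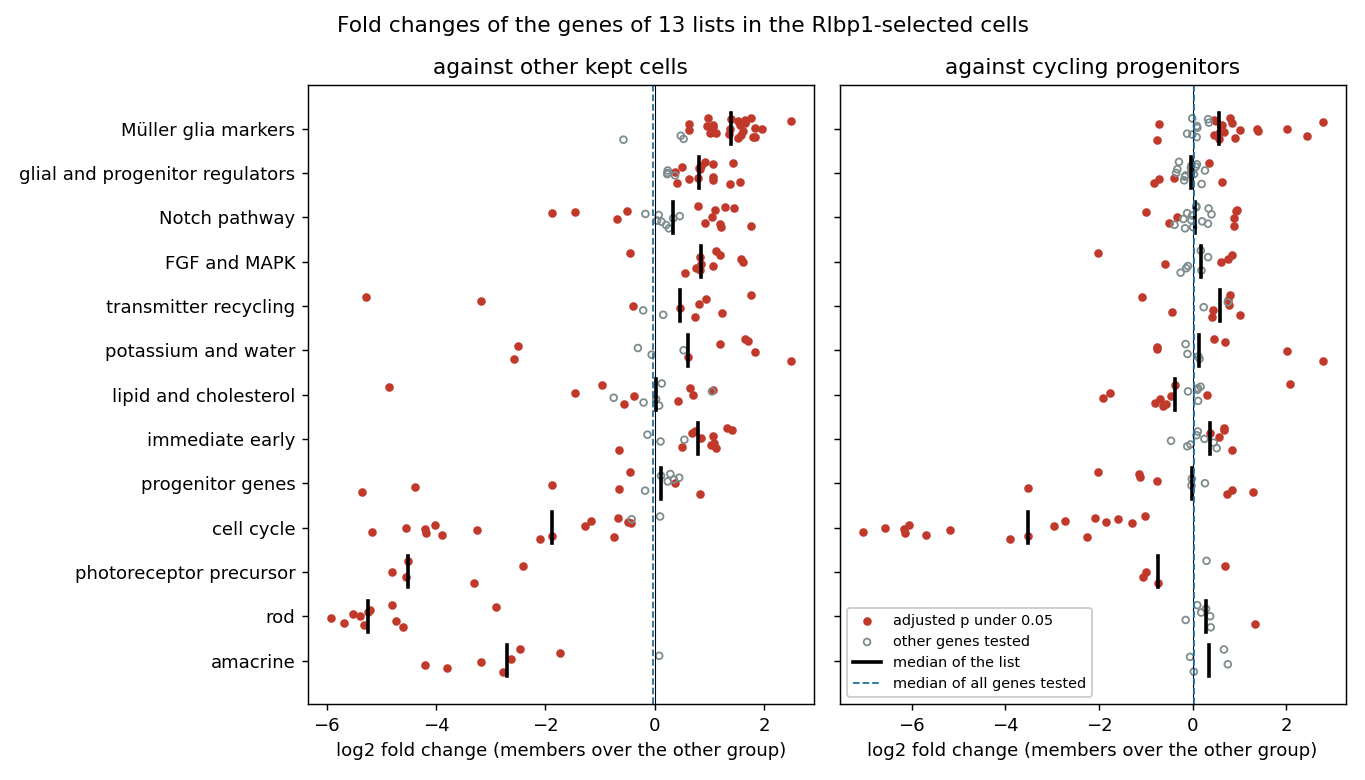
Log2 fold change (x axis) of each tested gene of 13 lists (rows) in the Rlbp1-selected cells against other kept cells (left) and against cycling progenitors (right); filled points have an edgeR adjusted p under 0.05, black ticks are list medians and the dashed line is the median of all genes tested. The Müller glia list has a median of 1.38 on the left and 0.56 on the right, and the cell cycle list −1.88 and −3.51.

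Cells that met the positive part of the rule and had 0 UMIs of the 3 neuronal genes but at least 1 UMI of Mki67, Top2a or Pcna numbered 1676 in P3 replicate 1 and 1304 at P6. Many of them are also counted as cycling progenitors. For several glial genes they lay between members and cycling progenitors. Crym was at 909 CPM in P3 replicate 1 and 1610 CPM at P6 in these cells, between 1464 and 705 CPM and between 2604 and 1038 CPM. Sat1 was at 610 and 1123 CPM, between 1262 and 391 CPM and between 2256 and 557 CPM. Car14 was at 16.7 and 45.7 CPM, between 42.0 and 9.26 CPM and between 133 and 14.0 CPM. Hes5 was at 859 and 997 CPM and lay between as well. Hes1 ran the other way, from 464 and 393 CPM in members through 571 and 535 CPM to 591 and 592 CPM. These levels are a description, since the positive part of the rule chose 2 of the 3 groups and no test was made.

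By the rule for named genes, 68 genes were higher than in other cells by 2 times or more in all 3 libraries, and the 12 with the largest fold change among those named by the rule were Car14, Cyp26a1, Ndrg2, Sat1, Clrn1, Cyp2j6, Entpd2, Npy, Mfge8, Crym, Ppp1r17 and Mt3. In P3 replicate 2 this asks little more than 1 UMI in its 4 members, and a gene such as Gpr37, at 111 and 48.8 CPM in P3 replicate 1 and 209 and 56.1 CPM at P6, was left out with 0 UMIs there. Without P3 replicate 2, 112 genes passed, and 9 of the 12 were again among the 12 highest, all but Crym, Ppp1r17 and Mt3. Sat1, which acetylates polyamines for their breakdown, was at 1262 and 306 CPM in P3 replicate 1, 1224 and 173 CPM in P3 replicate 2 and 2256 and 516 CPM at P6, with a UMI in 85.0% and 93.4% of members of P3 replicate 1 and P6. Ndrg2, a gene of glia and astrocytes, was at 141 and 36.5 CPM in P3 replicate 1 and 293 and 66.3 CPM at P6. Members were above other cells by more than 3 times for both genes in these 2 libraries. Entpd2, an enzyme that hydrolyses extracellular ATP, was at 55.2 and 16.0 CPM and 84.9 and 20.1 CPM. Clrn1, the Usher syndrome gene clarin-1, was at 35.7 and 10.2 CPM and 74.3 and 17.1 CPM. Mfge8, a secreted bridge between dying cells and phagocytes, was at 368 and 116 CPM and 762 and 175 CPM. Npy, neuropeptide Y, was at 111 and 38.2 CPM and 183 and 37.1 CPM, in 25.6% and 34.97% of members. Of the 10 lowest, Cdhr1, Zfp385b, Rp1, Cngb1, Samd7 and Chgb are used in photoreceptors or other neurons, and Esco2, Hist1h3c and Nusap1 in dividing cells. Rp1, a protein of the photoreceptor axoneme, was at 2.10 and 157 CPM and 8.25 and 527 CPM.

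Against cycling progenitors the 12 highest of 44 genes past the same rule were Car14, Kdm5b, Ppp1r17, Pik3ip1, Kdm7a, Npy, Sept4, Sat1, Cyp2j6, Tubb3, Fam110b and Ndrg2. Of these, 6 (Car14, Ppp1r17, Npy, Sat1, Cyp2j6 and Ndrg2) were also among the 12 named against other cells. Without P3 replicate 2, 65 genes passed and 7 of the 12 were again named. Kdm5b, a histone H3K4 demethylase, was at 150, 203 and 35.4 CPM in members, other cells and cycling progenitors of P3 replicate 1 and at 187, 256 and 35.1 CPM at P6. Kdm7a, another histone demethylase, was at 46.2, 63.5 and 14.6 CPM and 51.7, 83.6 and 14.3 CPM. For both demethylase genes, and for Pik3ip1, members were near or below other cells and above cycling progenitors. Tubb3, a neuronal tubulin, was at 53.6, 240 and 23.1 CPM and 70.2, 227 and 18.3 CPM, in 15.2% and 21.2% of members.

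Members of P6 were set beside those of P3 without a test, since P6 is 1 library. Among 5706 genes at 50 CPM or more in the members of at least 1 library, 12 were 2 times or more higher at P6 than in both P3 libraries (0.21%) and 86 lower (1.51%), or 19 and 21 with TMM scaling. Of the 86, 83 reached 50 CPM only in P3 replicate 2, 62 of them on 1 UMI, so they describe its 4 cells. The 10 that lead it (Ntng1, Gabra2, Svop, Gpr27, Pianp, Slc17a6, BC030500, Clmp, Nrn1 and Arhgef28) had at most 4 UMIs in any member group. Against P3 replicate 1 alone, 23 of 3498 genes were higher (0.658%) and 10 lower (0.286%), and the 12 were among the 23. Genes of the rule stayed in these counts, and Apoe is among the 12.

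Genes higher at P6 included several of glia. Cryab, the small heat shock protein αB-crystallin, was at 7.88 CPM in P3 replicate 1 (from 15 UMIs) and 62.4 CPM at P6 (from 340 UMIs), a ratio of 7.91, and other cells showed a ratio of 8.15. Aldoc, the aldolase of astrocytes and Müller glia, was at 14.7 and 78.1 CPM, a ratio of 5.31 against 2.61 in other cells. Car14 gave 3.16 against 2.46, and Sparc, a matrix-associated glycoprotein, 2.51 against 1.70. Apoe gave 3.06 against 1.85, but the rule used Apoe to choose the members. For these 5 genes the level at P6 was thus also higher in the rest of the library, and for Cryab by as much as in members. Phlda1 was at 20.5 and 63.8 CPM, a ratio of 3.11 against 0.83, but 3 UMIs in the 4 members of P3 replicate 2 gave it 167 CPM there, above P6. Aldoc and Car14 were also not past 2 times against P3 replicate 2, at ratios of 1.40 and 1.19 from 1 and 2 UMIs. Cdkn1c, which encodes the inhibitor p57, gave 2.30 against 1.42. Mt2, Necab3, Cntnap2, Ptgds and Luzp2 complete the 10 that lead both P3 libraries together with Ddx3y, and Aldoc, Car14, Phlda1, Pcdh15 and Eif2s3y were added against P3 replicate 1. Of these 10, Cryab, Ddx3y, Mt2, Necab3, Cntnap2 and Luzp2 had 0 UMIs in the 4 members of P3 replicate 2. The Poisson interval of 0 UMIs there reaches 205 CPM, above their levels at P6. Cdkn1c and Ptgds had 1 UMI. A count of 0 passes the fold at any level, so these genes rest on P3 replicate 1.

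Genes lower at P6 than in P3 replicate 1 included those of DNA replication and division. Lig1, DNA ligase 1, was at 55.2 and 17.1 CPM, Mcm6 at 78.3 and 26.0 CPM, Cenpf at 53.1 and 17.1 CPM, and Topbp1 and Dnmt1 were also past 2 times. In other cells the P6 level was 0.59 times that of P3 replicate 1 for Lig1, 0.53 for Mcm6 and 0.59 for Cenpf, against 0.31, 0.33 and 0.32 in members. These genes were chosen by the ratio in members. Members were also chosen for 0 UMIs of Mki67, Top2a and Pcna, and were deeper at P6, with a median of 5323 against 4413.5 UMIs. The part of the rule and of depth in these ratios was not tested. H19, Lrrtm1 and the sterol enzyme gene Idi1 were also lower. Xist was at 683 CPM in P3 replicate 1 members and 0 at P6, and at 1112 and 0.77 CPM in other cells, with Tsix alike, while the Y-linked Ddx3y was at 16.8 and 60.0 CPM and Eif2s3y at 36.3 and 96.1 CPM in members. The pools thus differed in their share of male and female cells, and sex and age cannot be told apart between them.

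Across the lists, 20 of 22 Müller markers at the minimum were above P3 replicate 1 at P6, with a median ratio of 1.37, against 1.00 over the 3498 genes. Slc1a3 gave 1.45 against 0.95 in other cells, Dkk3 1.51 against 0.96, Gpr37 1.88 against 1.15 and Crym 1.78 against 1.44. For these 4 genes the ratio was larger in members than in other cells. Dapl1 and Id1 were the 2 markers that were lower, at ratios of 0.78 and 0.70. Transmitter genes had a median ratio of 1.35, shared regulators 1.19, immediate early genes 1.30 with 10 of 10 higher, the Notch list 0.96 and cell cycle genes 0.69. Rlbp1 itself gave 1.98 and Glul 1.10, but the rule used both. The share of thinned members with a Crym UMI was 82.4% in P3 replicate 1 and 93.0% at P6, and with a Slc1a3 UMI 59.5% and 68.0%. The share of members with a lone Rlbp1 UMI also differed, at 36.0% in P3 replicate 1 and 11.4% at P6. Its part in these ratios was not tested.

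**Figure D5:**
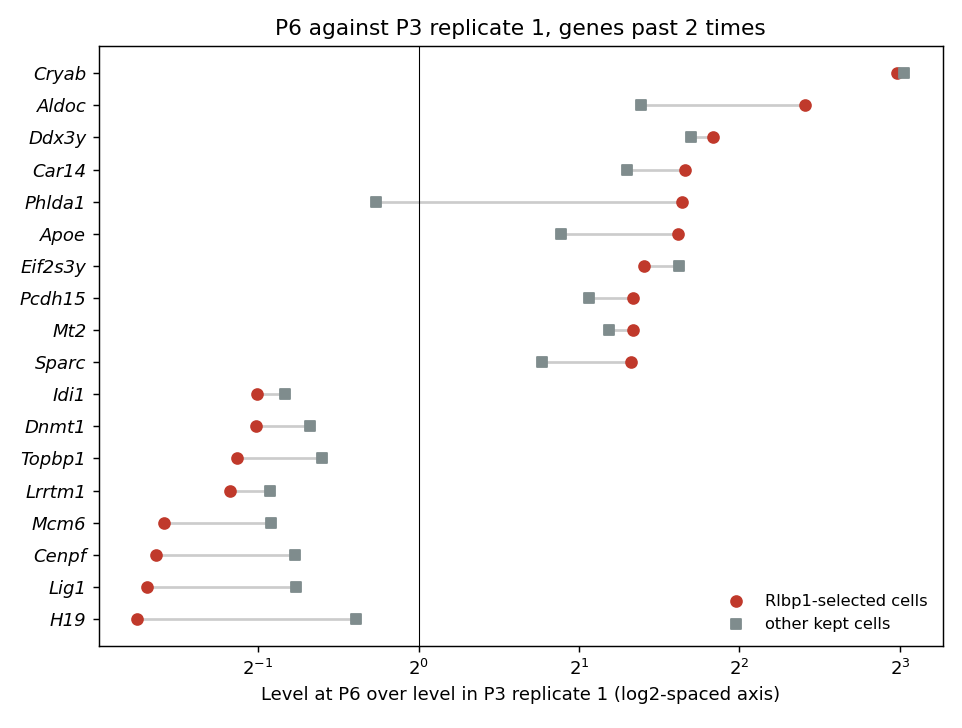
Ratio of the level at P6 to that in P3 replicate 1 (x axis, log2-spaced) in the Rlbp1-selected cells (circles) and other kept cells (squares), for the 18 named genes with UMIs in the selected cells of both libraries. Cryab is at 7.91 and 8.15, Aldoc at 5.31 and 2.61 and Phlda1 at 3.11 and 0.83, and the genes below 1 lie further from 1 in the selected cells than in the others.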

How the data were processed

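The values are UMI counts per gene and cell as deposited by the authors, made with Cell Ranger (6.1.2 in the headers of 4 of the 6 libraries) on mm10, with no normalization. Both annotations shared 27040 gene identifiers, and only these were used. Kept cells had 300 to 6000 genes and at most 15% mitochondrial UMIs, and the paper's limit of 4000 genes was an alternative. Members, other kept cells and cycling progenitors were summed per library (6 sums a comparison) and tested with edgeR 4.0.16 (filterByExpr, TMM, quasi-likelihood, library as block because both sums come from 1 library, Benjamini-Hochberg over all genes tested, threshold 0.05), leaving out the 12 genes of the rule. DESeq2 1.42.0, no block, other filters, other forms of the rule and leaving out each library were alternatives. Libraries are pools of animals, so p-values measure only the spread between these sums. On simulated data, 69 of 100 genes changed 2 times and 97 of 100 changed 4 times were recovered in the comparison with other cells (13302 genes, 9 false calls), and 82 and 98 of 100 in that with cycling progenitors (10818 genes, 3 false calls). Those data had a common dispersion for all genes and the same fold change in every library. They therefore do not give the false calls of the real comparisons, where far more genes differed. P6 was set beside P3 without a test, among genes at 50 CPM or more. Doublets were called by comparison with simulated pairs of cells (Python 3.11.15, scikit-learn 1.9.0) and stayed in, and figures were drawn with matplotlib 3.10.9. Thinning drew 2000 UMIs per cell. Intervals cover counting error only.

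Named genes were the 12 of the rule, the genes of the lists, and in each test the 12 highest and 10 lowest log2 fold changes among genes past the threshold, changed by 2 times or more the same way in all 3 libraries, at a mean of 50 CPM or more in the higher group, without names that start with Gm or end in Rik. For P6 against P3 they were the 10 with the highest and the 10 with the lowest of the smaller ratios. Members and lists were chosen with earlier results of these data known. The list symbols Pals1 and Cebpd had no match. Some genes are not reported here.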

Additional observations from a re-analysis of the deposited data

Results flagged for a closer look

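At P0, which entered no comparison of expression, 35 of 10407 kept cells passed the same rule (0.336%, where a count of 0 allows 0.0288%). The positive part of the rule held in 3.67% of P0 cells with 0 UMIs of the 6 excluding genes (2.57 to 5.07), against 0.290% of cells with a Nr2e3 UMI (0.00734 to 1.60) and 0% of cells with a Tfap2b UMI (0 to 0.313), both with 0 cell cycle UMIs. It was more common in cycling progenitors of P0, at 14.4% (13.4 to 15.5), with medians of 6447 UMIs there and 4423 in the first class. After thinning, these 2 shares were 2.33% and 1.57%.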

How the results depend on the processing

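Against other kept cells, genes higher and lower in members numbered 354 and 1048 with DESeq2, 325 and 1097 without the replicate block (the pairing of both sums by library), and 958 and 1527 with no zeros asked of the neuronal genes, an alternative chosen after seeing the data. Leaving out 1 library each gave 669 to 2841 higher and 1294 to 3421 lower, with the lowest counts without P6. Against cycling progenitors they numbered 244 and 940 with DESeq2 and 155 and 731 without the block, and 254 to 2430 and 675 to 2907 with 1 library left out. Of 242 values of the named genes against other cells under these alternatives 237 stayed on their side of the threshold, 5 lost the call and 0 reversed, and of 241 against cycling progenitors 234, 7 and 0. These genes were chosen by large fold changes in the same data, so their counts do not carry over to the other calls. Of all 5516 calls against other cells, DESeq2 kept 1397 and the fit without the block 1422, with 2 and 37 reversed. Without P6, 1904 of 5437 were kept and 84 reversed. The share of members in P3 replicate 1 was 1.75% with 3 of 5 markers, 2.19% without Car2, 2.15% with Rlbp1 at 2 UMIs or more, 3.71% without called doublets, 4.93% with no zeros asked of the neuronal genes and 2.94% thinned. At P6 it was 4.88%, 5.603%, 6.49%, 8.14%, 11.01% and 9.22% in the same order, and in P3 replicate 2 it was 1.09% with no zeros asked. Members at P6 against P3 gave 73 higher and 188 lower at 1.5 times, 19 and 21 with TMM scaling, and 23 to 1101 and 10 to 2108 with 1 P3 library left out. The lower count was 32 with 3 of 5 markers, 27 without Car2, 33 with Rlbp1 at 2 UMIs or more and 20 with no zeros asked. The cause of these shifts was not tested. The 4 members of P3 replicate 2 limit what that library can show. Without P3 replicate 2, a choice also made after seeing the data, the rule for named genes was passed by 112 genes higher and 318 lower against other cells, in place of 68 and 176.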
